A study of Mus musculus with 14 samples.

Results

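The collagen chain family was followed here as 32 genes, taken by gene symbol from the platform annotation out of 18193 genes that had a probe set with a single symbol. The chains were grouped as fibrillar (9 genes), basement membrane (9 genes) and other (14 genes), and where a gene had several probe sets, the one with the highest average across the 14 arrays stood for it. RNA of pooled whole mouse lungs was hybridised to 14 Affymetrix GeneChip mouse genome arrays, 2 at each of 7 time points: embryonic days 12, 14, 16 and 18 (E12, E14, E16, E18), postnatal days 2 and 10 (P2, P10) and postnatal day 30, called Adult. All animals carried the labels strain ICR and gender female, with no allele or agent named. The day of the plug counted as day 0 of gestation. How many lungs a pool held, and whether the 2 arrays of a time point came from separate pools, is not given in the sources used here, so p-values measure only the spread between these arrays, which may be technical.

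Values are log2 signals, normalized by the authors across arrays, and ran from 2.53 to 14.99 over all probe sets, with array medians from 6.55 to 6.63. A probe set's signal depends on its own probes, so the level of a chain was compared between time points. Chains were set against each other only by their changes, and in 11 pairs by how their difference within an array changed over time points. Probe sets of 1 gene can differ in such changes (Col1a2, Adult minus E12: 0.03, -0.77 and -2.36). The part of unlike probe response in any of the 11 pair differences was not tested. The number of arrays limits the precision: the median SD between the 2 arrays of a time point was 0.0748 for the collagen chains and 0.0727 for all genes. Sftpc, the surfactant protein of type II alveolar cells, rose from 10.78 and 10.97 at E12 to 14.79 and 14.83 in Adult, and Nkx2-1, the transcription factor of lung epithelium, lay between 6.73 and 8.66 on every array. Scgb1a1, another epithelium marker, was uneven, with 9.59 and 8.10 at E12, 4.21 and 4.19 at E14 and 11.77 and 8.90 at E16. The reason was not tested, and the E12 arrays enter every comparison against E12. The 2 arrays of E16 stood apart in heart muscle markers, whose summed signal (log2) was 14.40 and 12.10 there against 11.18 to 13.78 at the other time points. The ventricular myosin gene Myl2 was 12.63 and 8.84 at E16 and at most 6.27 elsewhere. The counts and called changes of chains that use E16 are also given without E16 replicate 1, beside the counts of those steps.

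Collagens are trimers of alpha chains, secreted as procollagens, trimmed and crosslinked outside the cell. Fibrillar collagens form the cables that give tissue its tensile strength, type IV collagen forms the mesh of basement membranes under epithelium and around capillaries, and the remaining chains decorate fibrils, form microfilaments or span the cell membrane. In the lung, fibrils lie in airway walls, vessels and the alveolar septa, and the fused basement membranes of alveolus and capillary form the barrier for gas exchange.

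The level of 29 of the 32 collagen chains changed across the 7 time points (limma moderated F test, Benjamini-Hochberg adjusted p under 0.05), beside 73.2% of all genes. Col4a6, Col10a1 and Col19a1 were the chains that did not pass, with adjusted p of 0.126, 0.166 and 0.123. With the limits of the study's methods added (a highest time-point mean above 7 and a range between time points above 1.2), 21 chains (65.6%) were counted, against 4864 genes in all (26.7%). P10 was the highest time point for 7 of the 9 fibrillar chains, 4 basement membrane chains and 2 other chains, 40.6% of the family against 12.7% of all genes. E18 was the highest for 8 chains, all of the other class (25% of the family against 14% of all genes). Adult was the lowest time point for 13 chains (40.6% against 22.3%).

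The step from P10 to Adult held the most calls of any neighbouring step: 19 of 32 chains were lower and 4 were higher in Adult than at P10, while 14.9% of all genes were lower and 16.8% higher. The median difference of the chains was -0.76 (log2), beside 0.01 over all genes. The count of 19 lower chains held with any of the 14 arrays left out. With the limits of 1.2 and 7 added, 9 chains were lower, beside 1.79% of all genes. Between E12 and Adult, 14 chains were higher and 10 lower (35% and 30.2% of all genes), which is 43.8% and 31.2% of the family. The P10 arrays enter both the step into P10 and the step out of it, so neighbouring steps are not independent.

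Most fibrillar chains were highest at P10 and lower in Adult. Between P10 and Adult, 7 of the 9 fibrillar chains fell and none rose (0 also at an unadjusted p under 0.05, limma), with a median of -1.49. Over all genes 14.9% fell and 16.8% rose at that step. Type I collagen, the main fibril former, is built from the products of Col1a1 and Col1a2, and type III, its partner in soft tissue, from Col3a1.

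Col1a1 read 11.08 and 10.65 at E12, 11.30 and 11.02 at E14, 10.48 and 10.63 at E16, 11.05 and 10.64 at E18, 11.42 and 11.40 at P2, 11.72 and 11.87 at P10 and 10.39 and 10.00 in Adult. Both P10 arrays were above all other arrays, and both Adult arrays were below all others. Col1a1 fell by 1.60 (log2, SE 0.173, 3.04-fold, limma adjusted p = 1.29e-05) between P10 and Adult. Adult minus E12 was -0.67 (SE 0.173, adjusted p = 0.00406), a call that was lost without E12 replicate 1 (-0.46, adjusted p = 0.064) or without Adult replicate 2.

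Col1a2 read 12.75 and 12.64 at E12, 13.00 and 12.86 at E14, 12.72 and 12.85 at E16, 13.04 and 13.00 at E18, 13.50 and 13.50 at P2, 13.96 and 14.00 at P10 and 12.79 and 12.66 in Adult. Its E12 and Adult arrays overlapped, and the P10 arrays were the highest. The fall from P10 to Adult was -1.26 (log2, SE 0.0926, adjusted p = 4.3e-07), whereas Adult minus E12 was 0.03 (SE 0.0926, adjusted p = 0.797). The other probe sets of Col1a2 gave another result for Adult minus E12, -0.77 and -2.36, both called lower.

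Col3a1 read 13.44 and 13.32 at E12, 13.51 and 13.57 at E14, 13.36 and 13.41 at E16, 13.43 and 13.38 at E18, 13.68 and 13.74 at P2, 14.10 and 14.10 at P10 and 13.34 and 13.32 in Adult. The P10 arrays were again the highest, and the E12, E16, E18 and Adult arrays lay close together. Col3a1 fell by 0.77 (SE 0.0836, adjusted p = 1.4e-05) between P10 and Adult, and Adult minus P10 was -2.49 for its second probe set. Adult minus E12 was -0.05 (adjusted p = 0.636) for the representing probe set and -1.64, called lower, for the second. The representing probe sets of Col1a2 and Col3a1 read up to 14.00 and 14.10, near the top of the scale at 14.99, and whether this narrowed their differences was not tested.

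Type V collagen sits inside type I fibrils and sets where they start. Col5a1 read 10.24 and 10.30 at E12, 10.54 and 10.20 at E14, 9.82 and 9.71 at E16, 9.77 and 9.74 at E18, 10.25 and 10.08 at P2, 10.48 and 10.91 at P10 and 8.48 and 8.41 in Adult. The Adult arrays were below every earlier array, by more than the spread within any time point. Its fall from P10 to Adult was -2.26 (SE 0.139, 4.78-fold, adjusted p = 9.03e-08). Col5a2 followed with 11.88 and 11.78 at E12, 11.77 and 11.71 at E14, 11.48 and 11.63 at E16, 11.32 and 11.43 at E18, 11.89 and 11.91 at P2, 12.33 and 12.32 at P10 and 10.63 and 10.55 in Adult. Its Adult arrays too were the lowest and its P10 arrays the highest, and the fall was -1.73 (SE 0.0901, adjusted p = 2.5e-08). Col5a3, the third chain of the type, ran from 5.40 and 5.81 at E12 to 6.31 and 6.35 in Adult and was the fibrillar chain called higher in Adult against E12, by 0.73 (SE 0.137, adjusted p = 0.000358). Col5a3 stayed under a mean of 7 at every time point.

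Within arrays, Col1a1 minus Col1a2 went from -1.83 ± 0.215 (SD, n = 2) at E12 to -2.53 ± 0.19 in Adult (permutation test, adjusted p = 0.0171 over 11 pairs), which was lost without Adult replicate 2 (adjusted p = 0.0847) and with the mean of all probe sets (a change of 4e-04, adjusted p = 0.0537). Col1a1 minus Col3a1 went from -2.52 ± 0.209 to -3.14 ± 0.268 (permutation test across time points, adjusted p = 0.0246). That call was lost without any of 6 arrays and with the mean of all probe sets (a change of -0.19, adjusted p = 0.0586). Col5a1 minus Col5a2 went from -1.56 ± 0.111 to -2.15 ± 0.0091 (permutation test across time points, adjusted p = 0.0485). That call was lost without any of 11 arrays, and the change turned to 0.31 with the mean of all probe sets. The differences within these 3 pairs thus hung on single arrays or on the probe set used.

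Col11a1, a chain of the thin fibrils of cartilage, was highest at the start of the series. It read 8.16 and 8.04 at E12, 8.09 and 7.99 at E14, 6.85 and 6.94 at E16, 5.70 and 5.30 at E18, 5.79 and 5.36 at P2, 4.55 and 4.44 at P10 and 4.14 and 4.60 in Adult. The E12 and E14 arrays were the highest, and the level dropped at E16, at E18 and at P10. Col11a1 fell by 3.73 (SE 0.171, 13.3-fold, adjusted p = 3.11e-10) between E12 and Adult, the largest fibrillar change. The summed signal (log2) of cartilage markers went from 10.41 and 10.46 at E12 to 8.80 and 8.66 in Adult. Of the 9 markers 5 fell and 2 rose, beside 30.2% and 35% of all genes. The 2 that rose were the defining cartilage genes Acan, with 5.98 and 5.69 at E12 (Adult minus E12 0.69, adjusted p = 7.84e-05), and Matn1, with 3.38 and 3.35 at E12 (0.27, adjusted p = 0.0329). The part of cartilage in the fall of Col11a1 was not tested. The marker list includes Col2a1 and Col9a1, which are collagen chains themselves.

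Col24a1 and Col27a1 encode minor fibrillar chains. Col27a1 read 9.92 and 9.89 at E12, 9.14 and 9.12 at E18, 9.83 and 10.10 at P10 and 8.49 and 8.46 in Adult. It fell at E18 (-0.61, SE 0.0998, adjusted p = 0.000242) and again from P10 to Adult (-1.49, SE 0.0998, adjusted p = 1.82e-07). Col24a1, whose highest mean was below 7, read 4.26 and 4.62 at E16, 5.26 and 5.60 at E18, 5.41 and 5.89 at P10 and 3.79 and 3.54 in Adult. It rose at E18 (0.99, SE 0.167, adjusted p = 0.000298) and fell from P10 to Adult (-1.98, adjusted p = 1.38e-06).

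**Figure D1:**
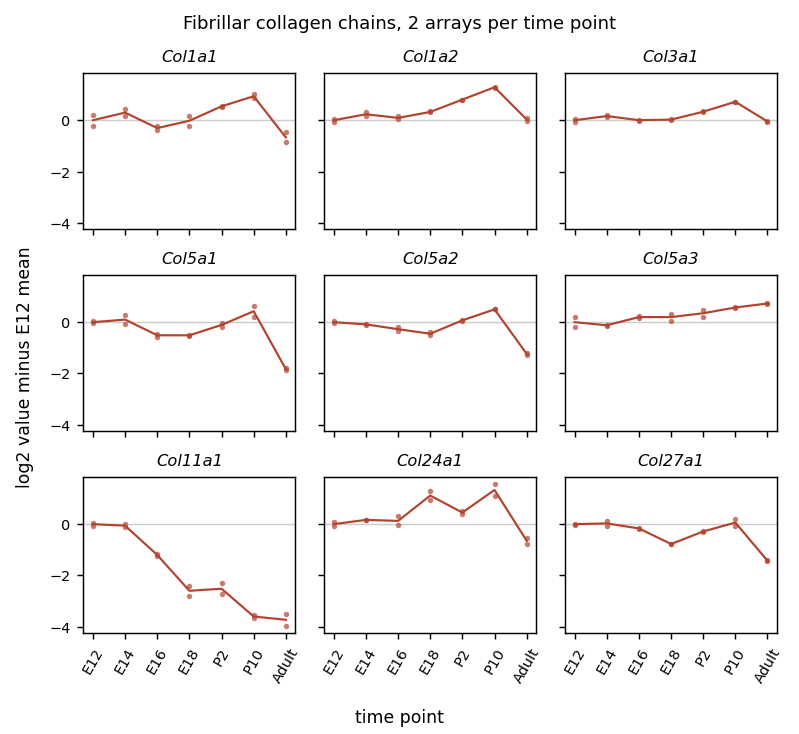
Fibrillar collagen chains, 1 panel per gene: log2 value minus the E12 mean (vertical axis) by time point (horizontal axis). Dots are the 2 arrays of a time point and the line joins their means. Col1a1, Col1a2, Col3a1, Col5a1, Col5a2, Col24a1 and Col27a1 peak at P10 and drop in Adult, Col5a3 is highest in Adult, and Col11a1 falls by 3.73 from E12 to Adult.

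Fibroblast markers fell with these chains from P10 to Adult, where 7 of 9 markers fell and 1 rose (14.9% and 16.8% of all genes). They did not move with the chains at every step before. Their summed signal (log2) went from 13.03 and 12.94 at E12 to 13.84 and 13.87 at E16, 14.77 and 14.76 at E18, 14.78 and 14.79 at P2, 15.16 and 15.14 at P10 and 14.30 and 14.36 in Adult. From E14 to E16, 5 of the 9 markers rose and 0 fell (0 also at an unadjusted p under 0.05), while 3 fibrillar chains fell and 0 rose (1 higher at an unadjusted p). Over all genes 9.95% rose and 10.6% fell. Without E16 replicate 1 the 3 differences were -0.53 for Col1a1, -0.67 for Col5a1 and -1.10 for Col11a1. How far these calls hung on single arrays is given with that step below. In whole lung, fewer cells of a type and less RNA per cell cannot be told apart, and the part of cell composition in the fall of the fibrillar chains was not tested.

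Type IV collagen has 6 chain genes in the mouse, arranged as head-to-head pairs on opposite strands: Col4a1 with Col4a2 on chromosome 8, Col4a4 with Col4a3 on chromosome 1 and Col4a6 with Col4a5 on chromosome X. The RefSeq bounds (assembly GRCm38.p6) of Col4a1 and Col4a2 share 85 bases at their starts and those of Col4a4 and Col4a3 share 114, whereas Col4a6 and Col4a5 are 1274 bases apart. The promoter windows (300 bases across a RefSeq start, most of them upstream, GRCm38.p6, 5′ to 3′ on the strand of the gene) are shown because the levels of the pairs moved together or apart as given next. Capitals mark bases that lie within the bounds of both genes of the pair.
Col4a1, chr8:11312777-11313076, minus strand: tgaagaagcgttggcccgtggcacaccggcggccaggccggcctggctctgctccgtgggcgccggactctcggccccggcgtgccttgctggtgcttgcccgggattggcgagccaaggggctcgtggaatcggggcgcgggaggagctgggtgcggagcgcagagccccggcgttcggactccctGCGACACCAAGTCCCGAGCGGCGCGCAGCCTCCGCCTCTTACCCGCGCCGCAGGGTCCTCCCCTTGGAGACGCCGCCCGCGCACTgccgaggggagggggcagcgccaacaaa
Col4a4, chr1:82586800-82587099, minus strand: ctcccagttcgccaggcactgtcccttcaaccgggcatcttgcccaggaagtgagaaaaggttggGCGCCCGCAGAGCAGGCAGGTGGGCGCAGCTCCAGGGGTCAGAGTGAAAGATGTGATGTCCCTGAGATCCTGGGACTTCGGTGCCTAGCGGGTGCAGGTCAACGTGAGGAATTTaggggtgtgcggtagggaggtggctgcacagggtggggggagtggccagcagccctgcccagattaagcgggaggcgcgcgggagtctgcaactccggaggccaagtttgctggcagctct
Col4a6, chrX:141474027-141474326, minus strand: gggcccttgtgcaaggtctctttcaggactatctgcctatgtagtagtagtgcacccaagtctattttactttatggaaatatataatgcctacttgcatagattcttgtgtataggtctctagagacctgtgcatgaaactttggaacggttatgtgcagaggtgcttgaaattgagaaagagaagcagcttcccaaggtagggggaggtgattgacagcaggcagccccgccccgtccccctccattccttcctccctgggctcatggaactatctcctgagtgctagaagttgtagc
Col4a5, chrX:141475169-141475468, plus strand: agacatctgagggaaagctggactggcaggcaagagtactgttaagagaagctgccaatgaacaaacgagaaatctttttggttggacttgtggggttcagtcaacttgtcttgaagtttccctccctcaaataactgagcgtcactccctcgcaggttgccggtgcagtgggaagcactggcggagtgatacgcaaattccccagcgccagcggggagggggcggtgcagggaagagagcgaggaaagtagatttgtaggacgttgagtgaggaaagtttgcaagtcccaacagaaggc
The window of Col4a2, on the other strand, shares 78 bases with that of Col4a1.

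Searched on both strands, the TATA box TATAAA was in 4 of the 29 windows of 27 collagen chain genes (13.6% of all 32851 promoter windows), CCAAT in 11 of 29 (37.4% of all) and the GC box GGGCGG in 18 of 29 (35.7% of all). A match is a description of these letters and no test of a factor.

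Of the type IV chains, Col4a1 to Col4a4 made most of their rise between E16 and E18, Col4a5 rose in smaller steps and Col4a6 did not pass the test at any step. Col4a1 and Col4a2 encode the chains of the type IV trimer found in nearly all basement membranes. Col4a1 read 11.18 and 10.99 at E12, 11.84 and 11.81 at E14, 12.03 and 12.09 at E16, 13.52 and 13.45 at E18, 13.27 and 13.34 at P2, 13.69 and 13.90 at P10 and 12.88 and 12.84 in Adult. No E18 or later array overlapped the E12, E14 or E16 arrays. Col4a1 rose by 1.42 (SE 0.0979, 2.68-fold, adjusted p = 9.28e-08) between E16 and E18, and Adult was above E12 by 1.78 (SE 0.0979, adjusted p = 2.01e-09) and below P10 (-0.93, adjusted p = 1.03e-05).

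Col4a2 read 10.02 and 9.78 at E12, 10.63 and 10.62 at E14, 10.61 and 10.78 at E16, 12.84 and 12.69 at E18, 12.34 and 12.40 at P2, 12.92 and 13.11 at P10 and 12.29 and 12.34 in Adult. The same split between E16 and E18 was present, with P10 the highest time point by mean. Col4a2 rose by 2.07 (SE 0.109, 4.2-fold, adjusted p = 7.78e-09) between E16 and E18 and by 2.42 (adjusted p = 2.58e-10) between E12 and Adult, and it fell by 0.70 (adjusted p = 0.000293) between P10 and Adult. The log2 difference between Col4a1 and Col4a2 within an array changed over the time points, from 1.19 ± 0.034 (SD, n = 2) at E12 to 0.71 ± 0.0518 at E18 and 0.54 ± 0.0625 in Adult (permutation test of the F ratio with 100000 resamples, p = 2e-05, adjusted p = 0.00022 over 11 pairs of chains). Over the 7 time-point means the pair had a Pearson r of 0.986, given as a description.

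Col4a3 and Col4a4 encode chains that join the Col4a5 product in the trimer of alveolar and kidney glomerular basement membranes. Col4a3 read 5.82 and 5.63 at E12, 5.65 and 5.25 at E14, 6.44 and 6.19 at E16, 9.90 and 9.88 at E18, 10.46 and 10.42 at P2, 10.20 and 9.72 at P10 and 10.46 and 10.15 in Adult. All E18 and later arrays were above 9.7, and all earlier arrays were below 6.5. The rise from E16 to E18 was 3.58 (SE 0.169, 11.9-fold, adjusted p = 3.3e-09), the largest rise of any collagen chain between neighbouring time points, and Adult was above E12 by 4.58 (SE 0.169, 23.9-fold, adjusted p = 3.94e-11). From P10 to Adult, Col4a3 did not pass the test (0.34, SE 0.169, adjusted p = 0.166).

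Col4a4 read 7.86 and 7.57 at E12, 8.001 and 8.31 at E14, 8.75 and 8.93 at E16, 11.56 and 11.65 at E18, 12.04 and 12.06 at P2, 11.72 and 11.71 at P10 and 11.61 and 11.51 in Adult. Its E18 to Adult arrays formed a plateau between 11.50 and 12.06, apart from all earlier arrays. Col4a4 rose by 2.77 (SE 0.122, 6.81-fold, adjusted p = 2.06e-09) between E16 and E18 and by 3.84 (adjusted p = 1.11e-11) between E12 and Adult, and Adult minus P10 was -0.16 (adjusted p = 0.412). The other probe sets of Col4a3 and Col4a4 rose as well between E12 and Adult, by 5.16 for that of Col4a3 and by 3.16 and 3.60 for those of Col4a4. Col4a3 minus Col4a4 went from -1.99 ± 0.0707 at E12 to -1.25 ± 0.148 in Adult (permutation test across time points, adjusted p = 0.014), and their means had an r of 0.991. The change of 0.73 in this difference became 1.33 with the mean of all probe sets.

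Col4a5 read 9.68 and 9.78 at E12, 9.89 and 10.05 at E14, 10.44 and 10.36 at E16, 10.87 and 10.84 at E18, 10.87 and 10.94 at P2, 11.04 and 11.17 at P10 and 10.92 and 10.95 in Adult. It climbed in smaller steps and stayed between 10.84 and 11.17 from E18 on. Col4a5 rose by 0.46 (SE 0.0921, adjusted p = 0.00121) between E16 and E18 and by 1.21 (adjusted p = 5.62e-08) between E12 and Adult. Its neighbour Col4a6, whose chain joins Col4a5 in other basement membranes, read 7.83 and 7.90 at E12, 8.03 and 8.07 at E14, 8.13 and 7.89 at E16, 7.94 and 7.91 at E18, 7.84 and 7.81 at P2, 7.79 and 7.74 at P10 and 8.08 and 7.90 in Adult. All lay within 7.74 to 8.13, with Adult minus E12 at 0.12 (95% interval from -0.09 to 0.34, adjusted p = 0.299). The difference Col4a5 minus Col4a6 widened from 1.86 ± 0.0271 at E12 to 3.34 ± 0.125 at P10 (permutation test across time points, adjusted p = 0.000528). The r of the means of Col4a5 and Col4a6 was -0.406. Col4a1 minus Col4a3 went from 5.36 ± 0.001 at E12 to 2.56 ± 0.194 in Adult (permutation test across time points, adjusted p = 0.000293). The Col4a3 signal rose more than that of Col4a1.

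**Figure D2:**
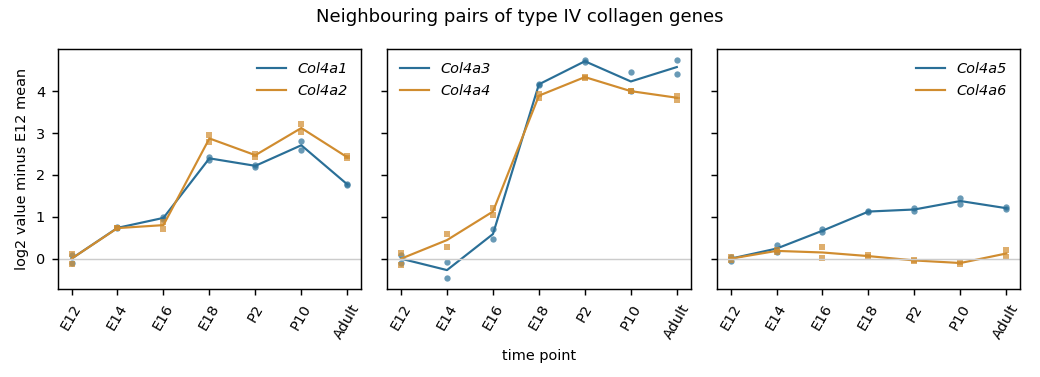
The 3 neighbouring pairs of type IV collagen genes: log2 value minus the E12 mean (vertical axis) by time point (horizontal axis), with dots and squares for the 2 arrays of a time point and lines through the means. Col4a1 and Col4a2 rise together at E18, Col4a3 and Col4a4 rise further (3.58 and 2.77 from E16 to E18), and Col4a5 rises while Col4a6 stays near its E12 level.

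Among the remaining basement membrane chains, Col7a1 encodes the anchoring fibrils of stratified epithelium, and Col15a1 and Col18a1 encode multiplexins, of which Col18a1 carries the endostatin fragment. Col18a1 read 9.99 and 10.04 at E12, 10.78 and 10.61 at E14, 10.62 and 10.67 at E16, 10.07 and 9.90 at E18, 9.70 and 9.69 at P2, 9.60 and 9.90 at P10 and 8.91 and 8.69 in Adult. The E14 and E16 arrays were the highest and the Adult arrays the lowest. Col18a1 fell at E18 (-0.66, SE 0.117, adjusted p = 0.00043) and from P10 to Adult (-0.95, adjusted p = 3.9e-05), and Adult was below E12 (-1.22, adjusted p = 5.67e-07). Col15a1 was also lower in Adult than at E12 (-0.62, SE 0.142, adjusted p = 0.00185), with 6.80 and 6.58 in Adult against 7.25 and 7.36 at E12, and lower than at P10 (-0.96, adjusted p = 0.000192). Col7a1 rose at E18 (0.49, SE 0.121, adjusted p = 0.00488) and read 7.13 and 7.46 in Adult against 6.76 and 6.997 at E12 (0.42, adjusted p = 0.00836, and 0.25 with an adjusted p of 0.122 without Adult replicate 2). Col15a1 minus Col18a1 went from -2.71 ± 0.0458 at E12 to -2.11 ± 0.0024 in Adult (permutation test across time points, adjusted p = 0.00387). Over the 9 basement membrane chains, 6 rose and 1 fell from E16 to E18 (24.8% and 21.6% of all genes), and 6 rose and 2 fell from E12 to Adult (35% and 30.2%).

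**Figure D3:**
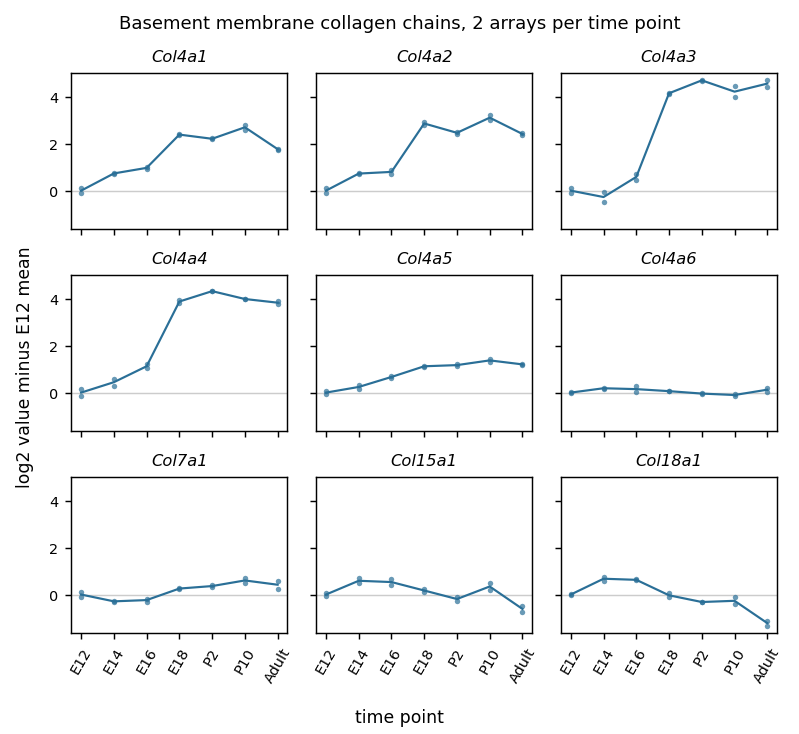
Basement membrane collagen chains, 1 panel per gene: log2 value minus the E12 mean (vertical axis) by time point (horizontal axis), with dots for the 2 arrays and a line through the means. Col4a3 and Col4a4 reach more than 3.8 above E12 by E18 and stay there, the Col4a6 means differ by at most 0.29, and Col18a1 and Col15a1 end below E12.

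Markers of endothelium, epithelium, mesothelium, leukocytes and fibroblasts rose at the same step as the type IV chains. Over all genes 24.8% rose and 21.6% fell there. Of 7 endothelium markers 6 rose and 0 fell from E16 to E18 (0 also at an unadjusted p under 0.05), and their summed signal (log2) went from 12.72 and 12.79 to 13.84 and 13.83. Of 8 epithelium markers 5 rose and 1 fell, with a summed signal of 15.20 and 15.07 at E16 and 16.17 and 16.16 at E18, and 4 of 5 mesothelium markers rose. So did 4 of 6 leukocyte markers and 5 of 9 fibroblast markers (1 fell). Of 7 smooth muscle markers 1 rose and 4 fell, and 3 of 9 cartilage and 3 of 8 heart muscle markers fell. The heart muscle markers that fell were Myl2, Myl3 and Nppa. Their 2 E16 arrays stood apart (12.63 and 8.84, 9.87 and 7.11, and 10.46 and 5.55). Marker counts were not made again without E16 replicate 1. The part of any of these cells in the rise of the type IV chains was not tested.

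Many of the other chains rose at E18. From E16 to E18, 9 of the 14 rose and none fell (0 also at an unadjusted p under 0.05, limma), beside 24.8% and 21.6% of all genes, and the median was 0.45. At the same step 6 of 7 endothelium, 5 of 9 fibroblast (1 fell) and 5 of 8 epithelium markers (1 fell) rose. So did 4 of 5 mesothelium and 4 of 6 leukocyte markers, while 1 of 7 smooth muscle markers rose and 4 fell. The part of these cells in the rise of the other chains was not tested. Col6a1, Col6a2 and Col6a3 encode the chains of type VI collagen, which forms beaded microfilaments around cells.

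Col6a1 read 10.20 and 9.97 at E12, 10.87 and 11.06 at E14, 11.18 and 11.29 at E16, 12.39 and 12.29 at E18, 11.82 and 11.87 at P2, 12.10 and 12.07 at P10 and 11.36 and 11.25 in Adult. It climbed to E18 with no overlap between neighbouring time points up to there. Col6a1 rose by 0.88 at E14 (SE 0.104, adjusted p = 0.000535) and by 1.11 at E18 (adjusted p = 1.64e-06), and Adult was below P10 (-0.78, adjusted p = 7.72e-05) and above E12 by 1.22 (adjusted p = 1.72e-07). Col6a2 read 10.84 and 10.47 at E12, 11.45 and 11.57 at E14, 11.51 and 11.71 at E16, 12.39 and 12.40 at E18, 11.86 and 11.93 at P2, 12.23 and 12.21 at P10 and 11.16 and 11.02 in Adult. Its course had the same high points, at E18 and P10. Col6a2 rose by 0.78 at E18 (adjusted p = 0.000133) and fell by 1.13 from P10 to Adult (adjusted p = 1.11e-05). In Adult it was above E12 by 0.44 (adjusted p = 0.00619), a call lost without E12 replicate 2 (0.25, adjusted p = 0.0975) or without Adult replicate 1.

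Col6a3 read 9.79 and 9.56 at E12, 10.63 and 10.96 at E14, 11.63 and 11.60 at E16, 12.90 and 12.78 at E18, 12.36 and 12.39 at P2, 12.78 and 12.83 at P10 and 11.38 and 11.41 in Adult. It had the widest range of the 3 chains. Col6a3 rose at E14 (1.12, SE 0.114, adjusted p = 0.000214), at E16 (0.82, adjusted p = 0.000318) and at E18 (1.23, adjusted p = 1.54e-06), and it fell by 1.41 from P10 to Adult (adjusted p = 9.36e-07). Within arrays, Col6a1 minus Col6a2 went from -0.57 ± 0.0988 at E12 to 0.22 ± 0.0199 in Adult. Col6a1 minus Col6a3 went from 0.41 ± 0.0016 at E12 to -0.72 ± 0.0601 at P10. Both differences changed across the time points (permutation tests, adjusted p = 0.00044 and 0.00022).

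Col13a1, Col17a1, Col23a1 and Col25a1 encode collagens that span the cell membrane. Col25a1 read 8.67 and 8.41 at E12, 9.14 and 9.08 at E14, 9.55 and 9.50 at E16, 9.97 and 9.89 at E18, 8.46 and 8.50 at P2, 8.75 and 8.92 at P10 and 4.90 and 4.59 in Adult. The Adult arrays lay far below every other array. Col25a1 fell by 1.45 from E18 to P2 (SE 0.117, adjusted p = 3.23e-06), and it fell by 4.09 between P10 and Adult (SE 0.117, 17-fold, adjusted p = 3.4e-10), the largest fall of any chain. The means of its second probe set ran from 6.68 at E12 to 7.04 at E18 and 6.74 in Adult, with Adult minus P10 at -0.24 (adjusted p = 0.149). The fall of Col25a1 thus rests on 1 of its 2 probe sets.

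Col13a1 rose at E18 (1.14, SE 0.119, adjusted p = 4.6e-06), from 9.50 and 9.56 at E16 to 10.66 and 10.67, and fell at P2 (-0.68, adjusted p = 0.00181), to 10.03 and 9.95. Both E18 arrays were above all other arrays. Col23a1 rose by 0.96 at E18 (SE 0.118, adjusted p = 1.94e-05), from 8.28 and 8.19 to 9.25 and 9.13, and it read 9.24 and 9.56 in Adult against 8.47 and 8.52 at E12 (0.91, adjusted p = 1.26e-05). Col17a1, a hemidesmosome component of epithelium, rose at E18 (0.81, SE 0.152, adjusted p = 0.000692), from 5.65 on both arrays to 6.29 and 6.65, with every mean below 7.

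Col14a1, Col12a1, Col16a1 and Col19a1 encode collagens that bind to fibrils without forming them. Col14a1 read 9.78 and 9.78 at E12, 10.24 and 10.33 at E14, 10.68 and 10.65 at E16, 11.09 and 11.23 at E18, 9.99 and 9.90 at P2, 10.26 and 10.42 at P10 and 8.97 and 8.85 in Adult. The E18 arrays were the highest and the Adult arrays the lowest. Col14a1 rose at E18 (0.50, SE 0.0934, adjusted p = 0.000687), fell at P2 (-1.22, adjusted p = 2.19e-06) and fell from P10 to Adult (-1.43, adjusted p = 1.43e-07). The E18 call was lost when the mean of its 3 probe sets was used. Col12a1 and Col16a1 were highest at P10 like the fibrillar chains, with 8.57 and 8.60, and 9.78 and 9.96, and both fell in Adult, by 0.76 (adjusted p = 8.99e-05) and by 1.37 (adjusted p = 3.5e-07). For Col12a1, Adult minus E12 was 0.17 (adjusted p = 0.18), while another of its probe sets gave 1.195, called higher. Col19a1 lay between 4.88 and 5.26 on all arrays, and its rise at E18 (0.29, SE 0.0946, adjusted p = 0.0272) was lost without any of the 4 arrays of that step.

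Col8a1 and Col8a2 encode the short chains of a network collagen of vessel walls and cornea. Col8a1 read 5.35 and 5.36 at E12, 5.70 and 5.42 at E14, 6.12 and 5.999 at E16, 6.10 and 5.75 at E18, 5.83 and 5.84 at P2, 5.83 and 6.01 at P10 and 6.996 and 7.10 in Adult. The Adult arrays were above all others. Col8a1 rose by 1.13 from P10 to Adult (SE 0.126, adjusted p = 1.83e-05), and its other 2 probe sets rose by 0.54 and 2.21. Col8a2 rose by 0.80 at the same step (SE 0.141, adjusted p = 0.000722), from 4.02 and 4.32 to 5.08 and 4.87. Col8a1 minus Col8a2 changed across the time points (permutation test, adjusted p = 0.00404). Col17a1 and Col23a1 made up the 4 chains higher in Adult than at P10, by 0.51 and 0.36, and both calls were lost when an array was left out (adjusted p up to 0.234 and 0.337, both with an Adult array left out). Col10a1, the collagen of hypertrophic cartilage, lay between 4.58 and 5.55 and its Adult arrays differed from each other (5.55 and 4.80). Its Adult minus E12 difference of 0.50 (adjusted p = 0.0302) became 0.12 (adjusted p = 0.493) without Adult replicate 1.

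**Figure D4:**
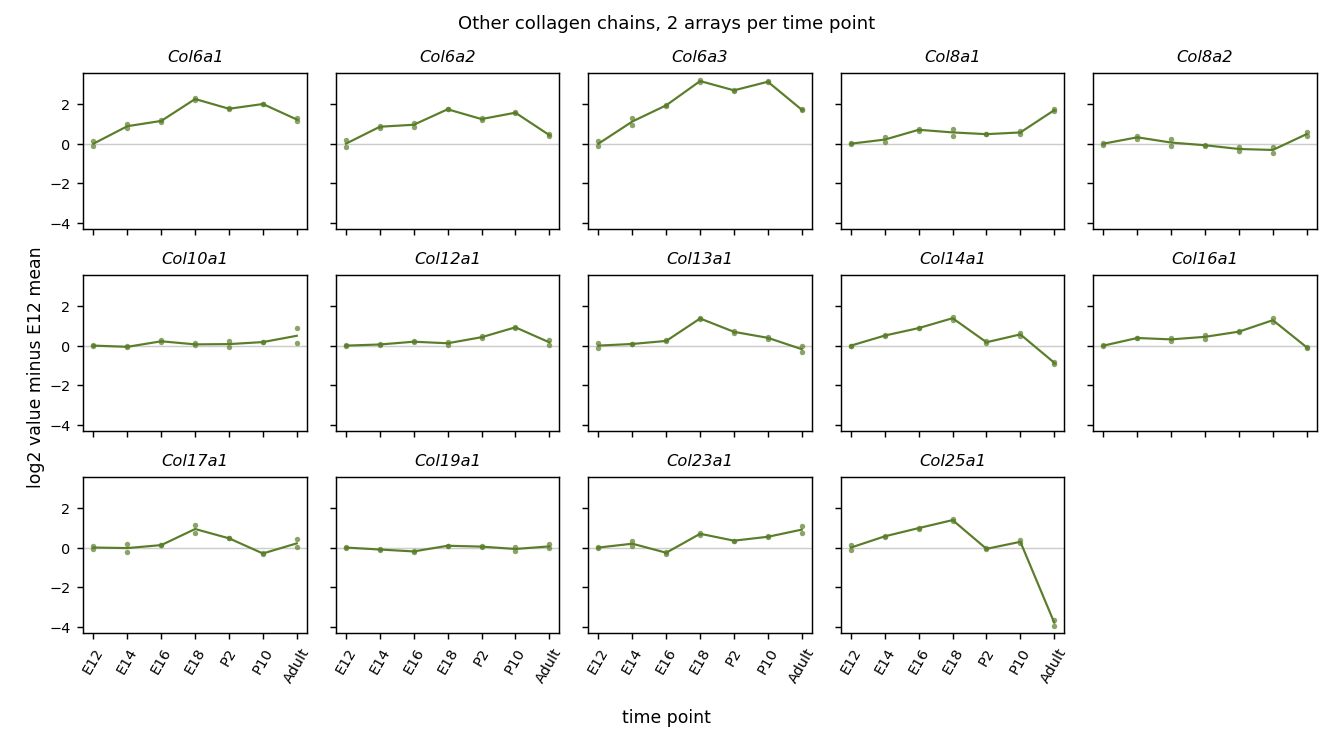
Other collagen chains, 1 panel per gene: log2 value minus the E12 mean (vertical axis) by time point (horizontal axis), with dots for the 2 arrays and a line through the means. Type VI, Col13a1, Col14a1 and Col25a1 peak at E18, Adult minus P10 is -4.09 for Col25a1, and Col8a1 rises in Adult.

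From E12 to E14, 9 chains rose (3.41% of all genes rose) and 0 fell (0.918% of all genes; at an unadjusted p under 0.05 14 chains were higher and 1 lower). Those were 4 basement membrane chains, Col4a1, Col4a2, Col15a1 and Col18a1, and 5 other chains, led by Col6a3. None of the 9 fibrillar chains passed in either direction at that step, with 1 higher at an unadjusted p. The E14 calls of Col14a1, Col15a1, Col18a1 and Col25a1 were each lost without 1 or more of the arrays, Col15a1 with the highest adjusted p (0.236 without E14 replicate 1). All 7 endothelium markers rose at E14, as did 4 of 8 epithelium markers (1 fell) and 3 of 9 fibroblast markers. Their part in the rises of the chains was not tested. From E14 to E16, 7 chains rose and 4 fell (9.95% and 10.6% of all genes), 3 of the falls being fibrillar (Col1a1, Col5a1 and Col11a1). Without E16 replicate 1, the array with the high heart muscle signal, 3 rose (Col4a3 by 0.74, Col4a4 by 0.77 and Col6a3 by 0.80) and 2 fell (Col5a1, -0.67, and Col11a1, -1.10). The calls of Col1a1, Col4a5, Col8a1, Col14a1, Col23a1 and Col25a1 at that step were lost without it, with adjusted p from 0.0557 to 0.177. The same counts were 4 and 1 without E14 replicate 1, and 1 chain fell without E16 replicate 2.

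From E16 to E18, 16 chains rose and 3 fell (24.8% and 21.6% of all genes). Of the rises 9 were other chains, 6 basement membrane chains and 1 a fibrillar chain, Col24a1, and the falls were Col11a1, Col18a1 and Col27a1. Without E16 replicate 1, 15 rose and 4 fell. Without that array the rises were 3.70 for Col4a3, 2.68 for Col4a4, 1.99 for Col4a2, 1.39 for Col4a1, 1.24 for Col6a3, 1.11 for Col13a1 and 1.05 for Col6a1. Of the 19 changes called at this step, the call of Col19a1 was lost (0.31, adjusted p = 0.0688) and the other 18 held. From E18 to P2, 7 rose and 8 fell (8.58% and 10% of all genes). The rises were 5 fibrillar chains (Col1a1 by 0.56, Col1a2 by 0.48, Col3a1 by 0.31, Col5a2 by 0.52 and Col27a1 by 0.49) with Col4a3 and Col4a4. Smooth muscle markers moved at the same step, with 5 of 7 higher and a summed signal (log2) of 12.66 and 12.97 at E18 and 14.18 and 14.10 at P2. Leukocyte markers (4 of 6) and fibroblast markers (4 of 9, with 1 lower) were higher too, while 4 of 8 epithelium markers were lower. The part of these cells was not tested. The falls were 6 other chains (Col25a1, Col14a1, Col13a1 and the 3 type VI chains) with Col4a2 and Col24a1. The E18 arrays enter both of these steps.

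Leaving out 1 array changed the counts at P2 and P10. For E18 to P2, 4 rose and 5 fell without E18 replicate 1, 3 rose without E18 replicate 2, 3 rose and 3 fell without P2 replicate 1, and 3 rose and 4 fell without P2 replicate 2. Of single calls at that step, Col1a1 had the highest adjusted p on leaving out an array (0.281, with a rise of 0.36, without E18 replicate 2). From P2 to P10, 12 chains rose and 2 fell (4.82% and 4.37% of all genes), 5 of the rises being fibrillar (Col1a2, Col3a1, Col5a1, Col5a2 and Col24a1). This count of rises was 2 without P2 replicate 1, 4 without P2 replicate 2 and 2 without P10 replicate 2, and the falls came to 1 without either P2 array. The 2 falls were Col11a1 (-1.08, SE 0.171, adjusted p = 0.002) and Col17a1 (-0.77, adjusted p = 0.00854), and Col17a1 was lost without either P2 array (adjusted p up to 0.0681). At Adult against P10, the higher count of 4 was 2 without P10 replicate 2.

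**Figure D5:**
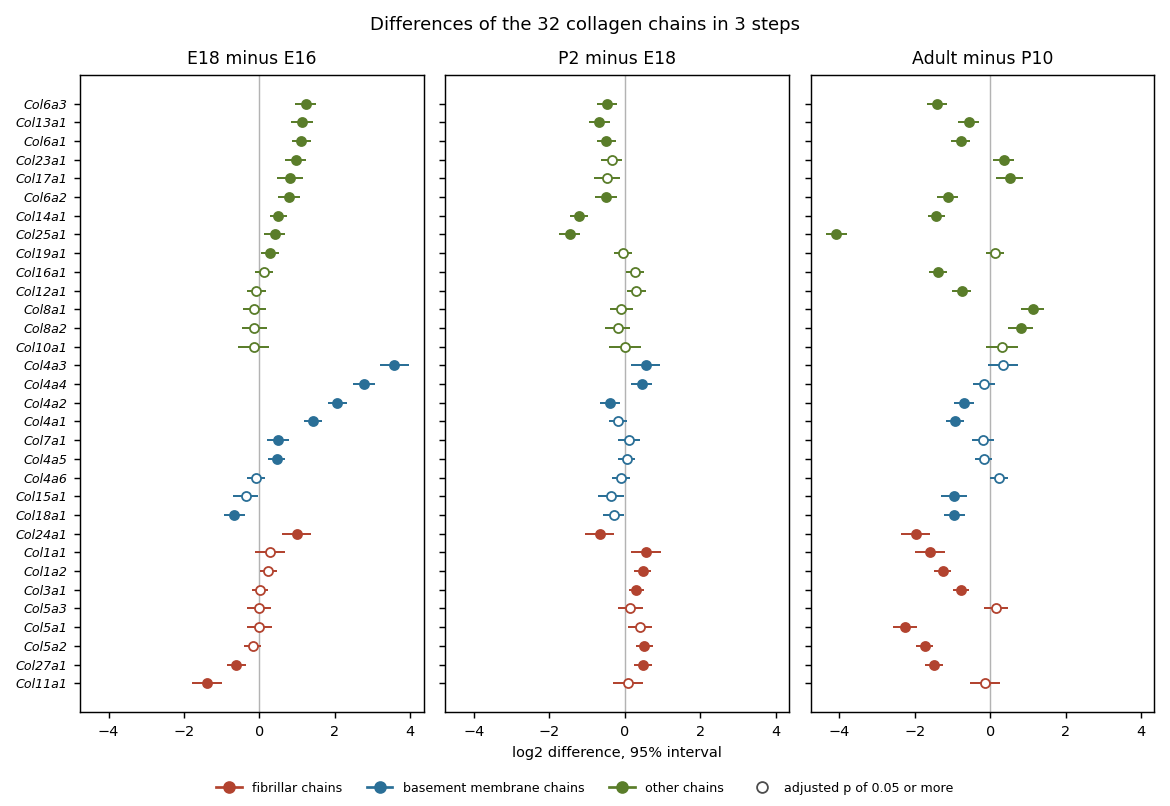
Differences at 3 steps for all 32 collagen chains: E18 minus E16, P2 minus E18 and Adult minus P10 (log2, horizontal axis), with 95% intervals as bars. Filled points passed an adjusted p under 0.05 and open points did not. Col4a1 to Col4a5 and the type VI chains rise at E18, 5 fibrillar chains rise at P2, and 19 chains passed the test below 0 in Adult against P10.

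Single genes that make, trim, link or bind collagen took differing courses. Over 64 genes of 6 lists, fibril partners, receptors and basement membrane partners included, 28 were higher and 22 lower in Adult than at E12. Of the 32 chains 14 were higher and 10 lower, and of all genes 35% and 30.2%. These counts do not set the lists apart from the chains. Of 20 hydroxylases, glycosyltransferases and chaperones, 10 fell and 4 rose from E12 to Adult, and 10 fell and 4 rose from P10 to Adult (14.9% and 16.8% of all genes). Serpinh1, the chaperone HSP47 that holds procollagen in the endoplasmic reticulum, fell from 12.47 ± 0.111 (SD, n = 2) at E12 to 11.51 ± 0.113 in Adult (-0.96, SE 0.0982, adjusted p = 1.18e-06). P4ha3, a prolyl hydroxylase subunit, was highest at P10 (6.98) and fell by 1.63 in Adult (SE 0.153, adjusted p = 3.61e-06), and P3h3 was lower in Adult than at E12 (-1.02, adjusted p = 1.02e-06). In contrast, the related subunit P4ha2 rose by 1.78 (SE 0.1, adjusted p = 2.44e-09) between E12 and Adult and P4ha1 by 0.35 (adjusted p = 0.00671), both with a rise at E18 (0.96 and 0.81) and a fall at P2 (-1.15 and -1.27).

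The lysyl hydroxylases Plod1 and Plod3 rose at E18 by 1.02 (adjusted p = 5.28e-06) and 0.63 (adjusted p = 3.02e-05) and fell at P2, and Plod2 fell at P2 by 0.77 (adjusted p = 0.00137). Colgalt2, a galactosyltransferase of collagen, had the largest rise of its list (2.30, SE 0.1, adjusted p = 1.97e-10). Among 7 propeptide proteinases and enhancers, 4 rose and 2 fell from E12 to Adult (35% and 30.2% of all genes). Bmp1, which removes the carboxyl propeptide of fibrillar collagens, was highest at P10 (10.62 ± 0.191) and fell by 1.59 in Adult (SE 0.119, adjusted p = 4.98e-07). Adamts3, an amino propeptide proteinase, was lower in Adult than at E12 (-0.93, adjusted p = 0.000493), and Furin was higher (0.97, adjusted p = 6.35e-05). The enhancer Pcolce rose at P2 (1.07, adjusted p = 3.97e-05), and its relative Pcolce2 rose from 7.42 ± 0.237 at E12 to 12.84 ± 0.0349 in Adult (5.42, SE 0.132, adjusted p = 1.47e-12).

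Lox, a lysyl oxidase, rose to 12.87 ± 0.0314 at E18 and fell to 11.11 ± 0.0648 at P2 (-1.76, SE 0.167, adjusted p = 1.38e-05). Loxl1, its relative tied to elastic fibres, rose from 7.99 ± 0.197 at E12 to 11.84 ± 0.171 at P10 and fell by 1.61 in Adult (SE 0.111, adjusted p = 2.29e-07). Loxl3 fell by 0.90 from P10 to Adult (adjusted p = 1.82e-05), Loxl4 lay between 5.95 and 6.39 by mean with Adult minus E12 at 0.18 (adjusted p = 0.185), and Tgm2, a transglutaminase, rose by 1.26 from P10 to Adult (adjusted p = 5.03e-07). In this list of 6, 2 rose and 1 fell from E12 to Adult (35% and 30.2% of all genes).

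Of 13 small leucine-rich proteoglycans and other fibril partners, 10 were higher and 3 lower in Adult than at E12 (median 1.32), beside 35% and 30.2% of all genes. Prelp rose from 5.98 ± 0.263 to 11.97 ± 0.025 (5.996, SE 0.131, adjusted p = 7.27e-13) and Bgn, biglycan, from 10.76 ± 0.153 to 13.31 ± 0.0506 (2.56, adjusted p = 4.54e-10). Dcn, decorin, rose by 1.55 from P10 to Adult (SE 0.145, adjusted p = 3.61e-06), the step at which the fibrillar chains fell. Aspn, asporin, was highest at P10 (12.03 ± 0.148) and fell by 3.01 in Adult (SE 0.258, adjusted p = 1.63e-06). Lum and Fmod, lumican and fibromodulin, were lower in Adult, with Adult minus E12 at -1.74 (adjusted p = 8.39e-07) and -1.78 (adjusted p = 2.34e-08).

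Of 8 collagen receptors, 5 rose between E12 and Adult and 0 fell (0 also at an unadjusted p under 0.05, limma), beside 35% and 30.2% of all genes. Itga1 (1.67, adjusted p = 7.5e-08) and Lair1 (1.30, adjusted p = 8.09e-07), a receptor of leukocytes, led the rises. The summed signal of leukocyte markers (log2) went from 9.28 and 9.23 at E12 to 14.59 and 14.68 in Adult, and its part in the change of Lair1 was not tested. Ddr1, a receptor tyrosine kinase of epithelium, rose by 1.22 at E18 (SE 0.108, adjusted p = 9.28e-07). Ddr2, its mesenchymal relative, rose by 1.0003 from P2 to P10 (SE 0.0997, adjusted p = 5.6e-05) and fell by 0.56 in Adult (adjusted p = 0.000839). Mrc2, an uptake receptor for collagen fragments, was also highest at P10 (10.07 ± 0.167) and fell by 1.11 in Adult (adjusted p = 6.59e-06).

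Among 10 partners of collagen in the basement membrane, 6 were lower and 3 higher in Adult than at E12 (30.2% and 35% of all genes). Frem2 fell by 4.07 (SE 0.17, adjusted p = 1.24e-10) and Nid2, nidogen 2, changed by -2.84 (adjusted p = 1.35e-10), while Smoc1 and Agrn, agrin, rose by 0.72 (adjusted p = 0.000194) and 0.52 (adjusted p = 0.000362). The 10 measured collagen chains outside the family of 32 gave 5 falls and 2 rises from E12 to Adult, beside the same shares of all genes. Col26a1 and Col9a1 fell by 3.36 (adjusted p = 1.36e-10) and 2.63 (adjusted p = 7.36e-08), and Col20a1 and Col6a4 rose by 1.01 (adjusted p = 8.17e-06) and 0.32 (adjusted p = 0.0255).

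Of the 32 chains, 21 had more than 1 probe set, 30 further probe sets in all. In Adult against E12, 23 of the 30 had the call of the representing probe set and 0 had the opposite one, and in Adult against P10 24 had the same call and 0 the opposite.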

How the data were processed

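Whole-lung mRNA was measured on 14 arrays of ICR mice. The deposited values are log2 signals of 45101 probe sets, and their normalization is stated in different ways: by the methods of the authors it was Robust Multichip Average (RMA) in Partek 6.4, and by the processing notes of the submitters it was GCRMA in that program. Which normalization the values carry was not settled here. Differences of low and near-saturated probes can be compressed, so folds are those of the deposited scale. The values were used as deposited, with 64 Affymetrix controls left out and no filter on level.

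Probe sets were named from the platform annotation (34945 with 1 symbol, 932 with several, 9160 with none, the last 2 kinds unnamed here), with 0 symbols renamed. All 32 chains were measured, and 26 had a highest mean above 7. One mean per time point was fitted to 45037 probe sets with limma 3.58.1 in R 4.3.3 (residual df 7, prior df 6.04), and p-values were Benjamini-Hochberg adjusted over all of them, with calls at 0.05. Intervals cover 95%. In data simulated with normal noise over 45037 probe sets, only the probe sets given a difference in Adult changed. For Adult against E12, 94 of 100 added differences of 0.75 and 100 of 100 of 1.5 were called. The share of called genes differed between steps in the data, so these counts check the fit and not its power at a step. Pairs of chains were compared within arrays by a permutation test of the F ratio over all time points, two-sided by construction. Its p does not test E12 against Adult or any other pair of time points. Correlations over time-point means are across 7 points that share arrays and carry no p. RefSeq tables of GRCm38.p6 gave names, neighbouring genes and promoter windows. Listed genes with no probe set of 1 symbol (Col6a6, Col28a1, Fkbp10, Adamts2, Adamts14, Loxl2 and Itga11) were not analysed here.

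The chains, pairs and gene lists were chosen with earlier results of these data known. All chains were named. Of each other list, a fixed set of enzymes, proteoglycans and receptors was named with the 2 genes that rose most and the 2 that fell most from E12 to Adult. Cell type markers were named mainly beside a result they moved with, so not every marker list is given at each step. Alternatives were a filter on level, other scalings, the mean of all probe sets, another prior, no moderation, the limits of the methods, the replicate number as a block and leaving out each array.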

Additional observations from a re-analysis of the deposited data

How the results depend on the processing

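Of 115 called changes of single chains, 0 reversed under any alternative. Calls lost numbered 1 after quantile normalization, median centring or a trended robust prior, 3 with a replicate block, 5 with the mean of all probe sets, 13 with the filter on a highest mean above 7, 20 without moderation, 85 with the limits of 1.2 and 7, and 3 to 22 when an array was left out (most without P2 replicate 1). Over 21 pairs of time points the correlation of replicate 1 minus replicate 2 ran from -0.186 to 0.129, with 1 above 0.1. Replicate numbers may be arbitrary, so these values cannot show whether arrays were paired or shared a batch. With the replicate block, 10 chains rose and 3 fell from P2 to P10 and 5 rose from P10 to Adult, and the counts of 14 higher and 10 lower in Adult against E12 were the same.

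With the filter, 1 chain fell from P2 to P10 and 2 rose from P10 to Adult. With the mean of all probe sets, 6 fell from E16 to E18, and 2 pair differences turned: Col1a1 minus Col1a2 changed by 4e-04 and Col5a1 minus Col5a2 by 0.31 from E12 to Adult, against -0.70 and -0.60 with the representing probe sets. Without moderation, 2 fell from E14 to E16, 4 rose from E18 to P2, 1 fell from P2 to P10 and 2 rose from P10 to Adult. With the limits, 8 rose and 6 fell from E12 to Adult, 0 rose to E14, 0 rose and 0 fell to E16, 5 rose and 0 fell to E18, 0 rose and 2 fell to P2, 0 rose and 0 fell to P10, 0 rose and 9 fell to Adult, and 14 genes of the other lists rose and 7 fell. The cause of these moves was not tested, and the limits remove changes by construction.

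Leaving out each array in turn gave 3 to 7 rises and 1 to 4 falls from E14 to E16, 3 to 8 and 3 to 10 from E18 to P2, 2 to 12 and 1 to 3 from P2 to P10, and 2 to 4 rises from P10 to Adult. All 11 pairs of chains passed with the representing probe sets and all arrays, 9 with the mean of all probe sets (Col1a1 minus Col1a2, adjusted p = 0.0537, and Col1a1 minus Col3a1, adjusted p = 0.0586, did not pass) and 8 to 11 with an array left out; Col5a1 minus Col5a2 (adjusted p = 0.0485) was lost without 11 of the 14 arrays, Col1a1 minus Col3a1 without 6 and Col1a1 minus Col1a2 without Adult replicate 2. With 2 arrays at a time point, small changes at single steps could not be told from the spread between arrays.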
